A study of Mus musculus with 4 samples.

Results

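Mature CCR7+ dendritic cells were taken from mouse B16-F10 melanomas, a transplantable pigment-cell tumour, by the RNA of single cells: 60 cells of the 12047 cells kept from the tumours' own immune cells, and of 15132 cells kept in all 4 libraries. A cell was a member when its barcode held at least 1000 UMIs (unique molecular identifiers, 1 per captured RNA molecule) from at least 500 genes, with at most 10% from mitochondrial genes. It also needed at least 1 UMI of Ccr7, at least 2 UMIs of Fscn1 and Ccl22 together and at least 5 UMIs of H2-Ab1 per 10000, with no UMI of Cd3d, Cd3e, Cd3g or Cd79a. Of the 60 members, 29 came from the IRF4 arm and 31 from the control arm.

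The tumours grew in C57BL/6 mice. On day 3 after implantation the mice were treated with Pmel-1 CD8+ T cells, transgenic T cells that recognise a melanocyte antigen, transduced with either IRF4 and GFP (IRF4 arm) or GFP alone (control arm). On day 14 the transferred Pmel-1 cells and the endogenous CD45+ cells were sorted from the tumours and each gave 1 single-cell 3' RNA library per arm. Both arms therefore share the strain, the tumour and a transfer of T cells, no arm was left without T cells, and the sources used here do not give the age of the mice or how many tumours were pooled. With 1 library per arm, the arms could not be compared against the spread between animals, and every interval between arms covers counting error only. The 2 Pmel-1 libraries held 0 mature dendritic cells among 572 and 2513 kept cells (IRF4 and control), which allows shares of up to 0.524% and 0.119%. IRF4 was added to the transferred T cells, not to the dendritic cells.

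Conventional dendritic cells take up antigen in tissues and exist as cDC1, which depend on IRF8 and BATF3, and cDC2, for which IRF4 is one of the factors. On maturation either kind lowers antigen uptake, raises peptide-loaded MHC, costimulatory ligands and CCR7, and follows the CCR7 ligands through lymphatic vessels to the draining node, where it meets naive T cells. In tumours such cells are known for carrying both activating molecules (CD40, CD80, CD86, IL-12) and restraining molecules (PD-L1, PD-L2, CD200), and non-canonical NF-kB signalling through RelB is a known part of the programme.

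The genes of the rule describe the members and were not tested. Ccr7, the chemokine receptor for CCL19 and CCL21 (chr11:99144196-99155077, minus strand of GRCm38), was at 2623 CPM (UMIs of the gene per 1000000 UMIs summed over the members of a library) in the IRF4 arm and 1380 CPM in the control arm. Fscn1, which encodes the actin-bundling protein fascin of dendrites, was at 1278 and 1123 CPM, and Ccl22, a chemokine ligand of CCR4 on regulatory and other T cells, at 644 and 470 CPM. Fscn1 had UMIs in 21 of 29 members of the IRF4 arm and 25 of 31 of the control arm. Members without it entered by Ccl22 alone. Single members carried 10 to 136 Ccr7 UMIs (median 47) in the IRF4 arm and 1 to 78 (median 17) in the control arm. Only 3 members, all in the control arm, rested on a single Ccr7 UMI, and 2 members in each arm sat at the minimum of 2 UMIs of Fscn1 and Ccl22. Just outside, 4 and 10 cells (IRF4 and control arm, the order used throughout) met every criterion but had no Ccr7 UMI, and 2 and 5 had 1 UMI of Fscn1 and Ccl22. A further 5 and 28 cells met every criterion but held UMIs of the Cd3 genes, exactly 1 such UMI in 1 and 5 of them, with median depths of 25926 and 42596 UMIs. Of 80371911 and 81911527 UMIs in the kept cells of the 2 endogenous libraries, the members gave 546263 and 485451, with medians of 17136 and 13527 UMIs and of 3179 and 3102 genes per cell.

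Markers that the rule did not use were in large part those of a mature dendritic cell, at uneven levels. Il4i1 and Socs2, 2 genes known from mature tumour dendritic cells, had UMIs in 27 and 25 of 29 members of the IRF4 arm and in 29 and 28 of 31 members of the control arm. Relb had UMIs in all 60 members. Other maturation genes were less even: Cd40 had UMIs in 26 of 29 and 23 of 31 members, and Cd80 in 18 and 14. Cd83, another such gene, ran from 1.29 to 27.0 UMIs per 10000 in the IRF4 arm and from 0 to 22.9 in the control arm. In the macrophage gate (at least 10 UMIs of C1qa, C1qb and C1qc and no Ccr7 UMI, median depths of 14461 and 21062.5 UMIs), which should lack most of this programme, Il4i1 had UMIs in 1 of 173 and 6 of 470 cells. When each cell was thinned to 2000 UMIs, Il4i1 was still seen in 69.0% and 54.8% of the members. The mature-cell gene Lamp3 and the Langerhans cell gene Cd207 had no UMI in any member, so the label rests on other genes. Lamp3 was also at 0 CPM in the cDC1 and cDC2 gates used below. The same held for the cells that missed only the H2-Ab1 limit or the limit on the Cd3 genes, so its absence is no trait of the members.

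The H2-Ab1 limit ran through a continuous range of cells. Members held 5.16 to 253.5 UMIs of this MHC class II gene per 10000 in the IRF4 arm (median 30.8) and 5.39 to 126.4 in the control arm (median 44.3). A further 27 and 42 cells met every other criterion but lay under the limit, the highest at 4.63 and 4.18 UMIs per 10000, with median depths of 15911 and 13616 UMIs. Ccr7 stood at 3021 and 2240 CPM and Fscn1 at 2142 and 2502 CPM in these cells. Cd74 stood at 3799 and 3837 CPM in them against 18901 and 18482 CPM in the members, and H2-Aa at 2849 and 2796 against 9878 and 9443 CPM. Relb was at similar levels on either side of the limit, 718 and 586 CPM outside against 615 and 589 CPM inside. The cells outside are therefore Ccr7-high and low in several MHC class II genes. The members are the MHC class II-high share of a larger population with Ccr7 and with Fscn1 or Ccl22. In the same cells Ciita, the master activator of MHC class II genes, was at 2.27 and 1.35 CPM outside against 25.6 and 94.8 CPM inside.

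**Figure D1:**
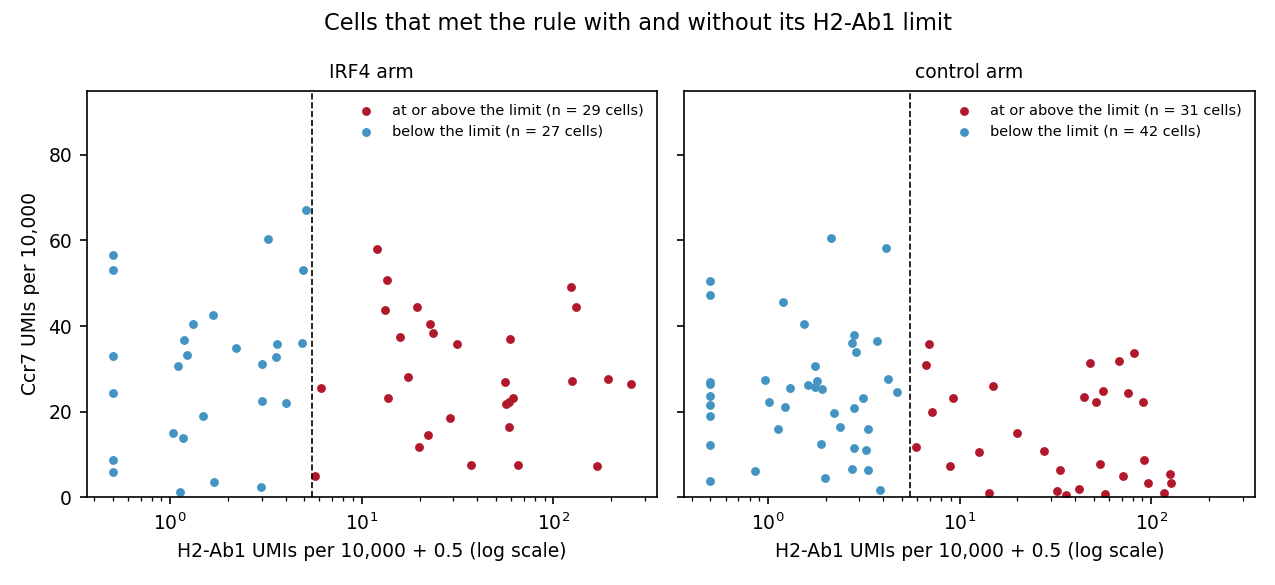
Each point is 1 cell that met every criterion other than the H2-Ab1 limit, with H2-Ab1 UMIs per 10000 plus 0.5 on a log axis against Ccr7 UMIs per 10000, for the IRF4 arm and the control arm. Red points (29 and 31 cells) are the members, blue points (27 and 42 cells) lie under the dashed limit of 5 per 10000, and the points run on without a gap.

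Mature cells made up 0.455% of kept cells in the IRF4 library (29 of 6371, exact Clopper-Pearson 95% interval 0.305 to 0.653%) and 0.546% in the control library (31 of 5676, 0.371 to 0.774%). The ratio of the shares was 0.833 with a counting interval of 0.485 to 1.43, so a difference was not detectable at these numbers. Both gates of immature cells differed more between the libraries: cDC1 cells (at least 2 UMIs of Xcr1 and Clec9a) numbered 66 and 110, a ratio of shares of 0.535 (0.388 to 0.732), and cDC2 cells (at least 2 UMIs of Cd209a, none of Xcr1 and Clec9a) numbered 83 and 152, a ratio of 0.486 (0.368 to 0.640). Among the cells of the 3 dendritic gates, mature cells were 16.3% (29 of 178, 11.2 to 22.6%) in the IRF4 arm and 10.6% (31 of 293, 7.30 to 14.7%) in the control arm, a ratio of 1.54 (0.895 to 2.64) whose interval includes 1. Without the H2-Ab1 limit, 56 cells stood against 73 and the ratio of shares was 0.683 (0.474 to 0.981). With the cells that held Cd3 UMIs counted in, 34 cells stood against 59 and the ratio was 0.513 (0.326 to 0.796). The ratio by arm therefore depends on the limit on the Cd3 genes, and the part of T cell RNA in these deeper cells was not tested.

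To find what sets the members apart, UMIs were summed over the cells of each gate in each library, and mature cells were compared with cDC1 and with cDC2 over both libraries with edgeR's quasi-likelihood test. Every gate carried the same limits on H2-Ab1, the Cd3 genes and Cd79a, and cDC1 and cDC2 cells had no Ccr7 UMI. Here and below, fold changes are log2 values with their standard errors, n = 2 libraries, and adjusted p-values are edgeR's with Benjamini-Hochberg adjustment over 8855 genes. The 2 libraries serve as replicates although they came from different treatments. With the library as a block, the p-values rest on how far the gates' differences vary between these 2 libraries, which may be technical.

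The mature programme was broad. Against cDC1, 1338 genes were higher in mature cells (15.1% of those tested) and 1130 were lower (12.8%). Against cDC2, 1307 were higher (14.8%) and 1107 lower (12.5%). The median gene moved by -0.04 and -0.01. Leaving out the genes of the gates, 1040 genes were higher against both and 759 lower against both, while 6 and 9 went opposite ways. Without scaling factors, which lifted the mature sums, the median gene moved by -0.31 and -0.30 and the calls became 986 higher and 1748 lower against cDC1 and 925 higher and 1733 lower against cDC2. The log2 values below are therefore relative to the scaled libraries, and a value within about 0.3 of 0 carries no direction.

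**Figure D2:**
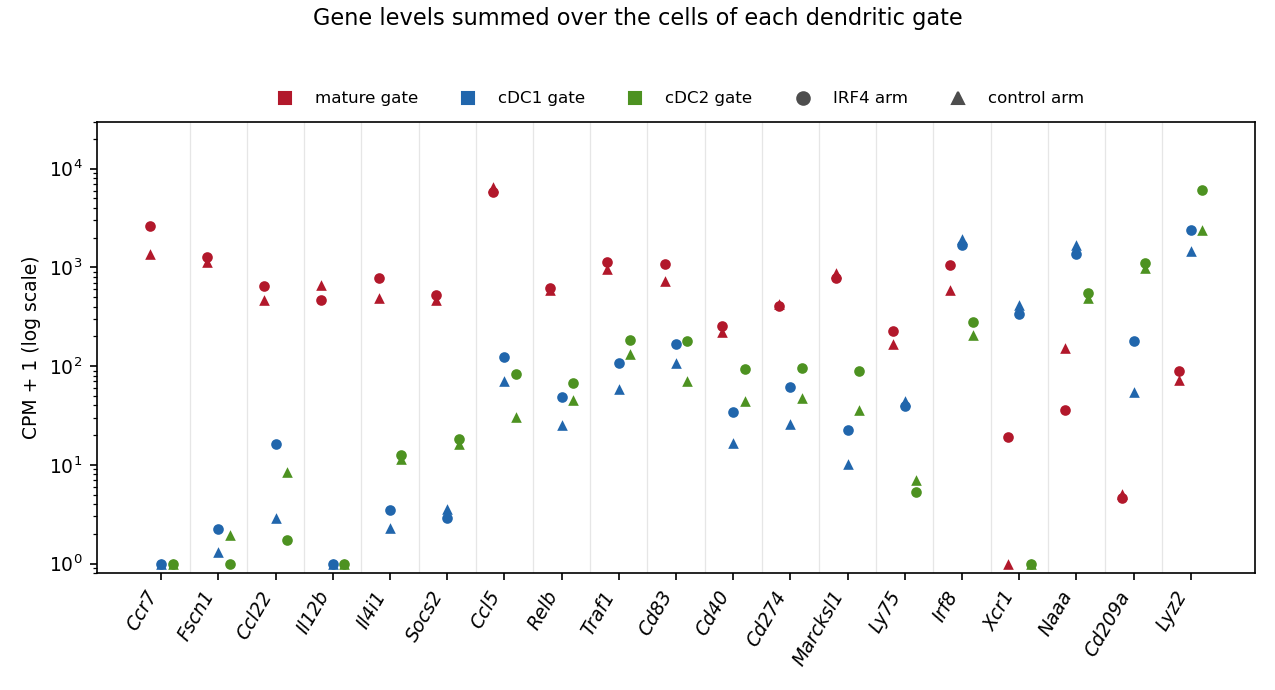
The y axis gives CPM plus 1 on a log scale for 19 genes, summed over the cells of each gate; red marks mature cells, blue cDC1 and green cDC2, circles the IRF4 arm and triangles the control arm. Il12b, Il4i1, Socs2, Ccl5, Relb and Marcksl1 sit far above both other gates in both arms, while Lyz2 and Naaa sit below them.

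Ligands and receptors of costimulation were higher in mature cells almost without exception. Of 13 tested genes of that list, 12 were higher and 1 lower against cDC1 (median 3.65, against -0.04 for all genes), and 11 were higher and 1 lower against cDC2 (median 2.51). Cd40, the receptor through which helper T cells license dendritic cells, was at 256 and 222 CPM in mature cells, at 33.4 and 15.6 CPM in cDC1 and at 92.8 and 43.7 CPM in cDC2. Its mature values lay above all 4 others, by 3.65 ± 0.25 over cDC1 (adjusted p = 2.3e-05) and 2.20 ± 0.23 over cDC2 (adjusted p = 0.000229). The CD28 ligands were both higher: Cd80 at 58.6 and 53.6 CPM against 3.78 and 3.83 CPM in cDC1, and Cd86 at 412 and 332 CPM against 182 and 142 CPM. Cd83, a surface marker of maturation, was at 1091 and 729 CPM against 168 and 107 CPM in cDC1 and 178 and 70.5 CPM in cDC2. Tnfrsf4, which encodes OX40, and Il2ra, the interleukin-2 receptor alpha chain, were near absent in the immature gates, at no more than 1.89 CPM in any of them, and reached 156 and 111 CPM and 80.5 and 111 CPM in mature cells. Cd70, the ligand of CD27, had 0 UMIs in cDC1 and cDC2 and was at least 48.8-fold and 47.1-fold higher in mature cells, against a floor of 3 counts over both libraries. The member that went the other way was Cd48, a ligand of CD2 and 2B4, at 73.2 and 105 CPM against 324 and 311 CPM in cDC1 and 402 and 344 CPM in cDC2.

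NF-kB genes rose nearly as a whole. Of 16 tested, 15 were higher than in cDC1 (median 2.33) and 13 higher than in cDC2 (median 1.98), with none lower. Without scaling factors these counts were 14 and 11. Relb, the non-canonical subunit, was at 615 and 589 CPM in mature cells, 47.9 and 24.2 CPM in cDC1 and 66.0 and 44.0 CPM in cDC2. The mature values were higher by 4.42 ± 0.23 (adjusted p = 6.77e-06) and 3.79 ± 0.22 (adjusted p = 1.13e-05), and the 2 arms differed little. Map3k14, the kinase NIK that starts the non-canonical route, rose by 3.66 and 2.74, and Nfkb2, whose p100 product it leads to be processed, by 2.83 ± 0.22 (adjusted p = 4.79e-05) and 2.01 ± 0.21 (adjusted p = 0.00025). Traf1, an adaptor of TNF receptors, was at 1122 and 970 CPM against 107 and 57.4 CPM in cDC1 and 183 and 132 CPM in cDC2. Rel, a canonical subunit, rose by 3.16 and 2.53, and the inhibitors Nfkbia and Tnfaip3, both known feedback targets, by 2.49 and 2.02 and by 2.36 and 2.06. Rela, at 71.4 and 45.3 CPM, rose by 0.96 against cDC1 (adjusted p = 0.0242), a call that was lost without scaling factors, and did not pass against cDC2 (0.72, adjusted p = 0.0661). Tnfaip2 was the member with no change called against either gate (0.00 and -0.35).

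The promoters of the NF-kB genes were searched on either strand for a loose form of the kappaB site, the letters GGG and TTCC with any 3 bases between them. The windows run from 250 bases before to 50 bases after a start, from RefSeq on GRCm38.p6. The letters were in 7 of the 14 NF-kB genes with an entry (50%): Nfkb2, Rel, Nfkbia, Nfkbie, Tnfaip3, Tnip1 and Tank. They were in 5.56% of all 32851 promoter windows, in 7.42% of 6877 genes tested, in 9.38% of 800 genes higher than both immature gates and in 7.26% of 592 genes lower than both. A gene counted when any of its windows matched, while the 5.56% is per window. The list holds known feedback targets of NF-kB and promoter letters are the same in any cell, so its share is no result about the members. Rela, Nfkbib, Traf1, Birc3, Bcl3, Tnfaip2 and Map3k14 lacked the letters in these windows, as did Il12b. The 4 windows shown are those of a non-canonical subunit, a canonical subunit and 2 feedback inhibitors that rose against both gates, with the matched letters in capitals, each 5' to 3' on the strand of its gene. The Nfkb2 window is chr19:46304487-46304786 (plus strand), the Rel window chr11:23770920-23771219 (minus strand), the Nfkbia window chr12:55492598-55492897 (minus strand) and the Tnfaip3 window chr10:19015361-19015660 (minus strand). The match nearest the start began 11 bases before it in Nfkb2, 91 in Rel, 29 in Nfkbia and 12 in Tnfaip3.
Nfkb2: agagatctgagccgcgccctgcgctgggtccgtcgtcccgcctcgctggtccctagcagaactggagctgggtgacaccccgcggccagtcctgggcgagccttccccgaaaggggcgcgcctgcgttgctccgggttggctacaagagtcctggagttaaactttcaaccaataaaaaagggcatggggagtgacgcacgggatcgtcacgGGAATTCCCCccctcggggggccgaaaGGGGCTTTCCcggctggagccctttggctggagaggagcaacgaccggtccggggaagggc
Rel: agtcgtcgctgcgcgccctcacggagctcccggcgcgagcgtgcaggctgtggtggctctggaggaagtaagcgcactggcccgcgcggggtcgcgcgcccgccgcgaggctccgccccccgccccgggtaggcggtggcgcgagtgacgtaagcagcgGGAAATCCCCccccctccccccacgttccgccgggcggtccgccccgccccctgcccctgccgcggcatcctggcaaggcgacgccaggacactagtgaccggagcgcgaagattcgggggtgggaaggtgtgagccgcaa
Nfkbia: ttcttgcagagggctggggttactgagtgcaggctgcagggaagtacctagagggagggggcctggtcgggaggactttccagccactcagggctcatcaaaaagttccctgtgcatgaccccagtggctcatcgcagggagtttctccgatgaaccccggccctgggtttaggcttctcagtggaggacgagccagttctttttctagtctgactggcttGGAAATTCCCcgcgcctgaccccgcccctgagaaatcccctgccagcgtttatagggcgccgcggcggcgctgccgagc
Tnfaip3: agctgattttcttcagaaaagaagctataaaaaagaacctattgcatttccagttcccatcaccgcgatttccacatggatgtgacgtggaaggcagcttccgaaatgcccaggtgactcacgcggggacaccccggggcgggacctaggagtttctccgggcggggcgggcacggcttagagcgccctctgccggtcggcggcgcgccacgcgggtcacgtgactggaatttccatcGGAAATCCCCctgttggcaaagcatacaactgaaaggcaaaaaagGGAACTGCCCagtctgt
The Nfkb2 and Tnfaip3 windows hold 2 matches each and the Rel and Nfkbia windows 1 each. A match is a string of letters, and binding was not measured here.

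Restraining molecules were high in the same cells. Of 13 tested immunoregulatory genes, 7 were higher and 1 lower than in cDC1 (median 1.21), and 7 were higher and 3 lower than in cDC2 (median 1.25). Cd274, which encodes PD-L1, was at 405 and 428 CPM in mature cells, 61.1 and 24.9 CPM in cDC1 and 94.3 and 46.6 CPM in cDC2, higher by 3.70 ± 0.30 (adjusted p = 5.19e-05) and 2.97 ± 0.29 (adjusted p = 0.000145). It had UMIs in 28 of 29 and 29 of 31 members, above the macrophage gate at 64.2% and 51.3%. Pdcd1lg2 (PD-L2) was at 185 and 103 CPM against at most 29.0 CPM in the immature gates. Cd200, the ligand of an inhibitory receptor of myeloid cells, was at 214 and 173 CPM against 2.18 to 9.56 CPM. Against cDC1 the largest changes of the list were those of Il4i1 and Socs2. Il4i1, a secreted amino-acid oxidase that uses phenylalanine and tryptophan (chr7:44816387-44840809, plus strand), was at 787 and 486 CPM against 2.52 and 1.28 CPM in cDC1 and 11.6 and 10.4 CPM in cDC2, a rise of 8.66 ± 0.29 (adjusted p = 1.23e-06) and 6.06 ± 0.23 (adjusted p = 2.13e-06). Socs2, a suppressor of cytokine signalling (chr10:95385362-95417180, minus strand), was at 524 and 463 CPM against 1.89 and 2.55 CPM and 17.4 and 15.4 CPM. The members did not all rise: Tgfb1 was lower, at 95.2 and 51.5 CPM against 170 and 193 CPM in cDC1 and 294 and 253 CPM in cDC2.

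Among the cytokine genes, Il12b encodes the p40 subunit of IL-12 and IL-23 (chr11:44400063-44414033, plus strand). It was at 469 CPM in the IRF4 arm and 665 CPM in the control arm and had 0 UMIs in all cDC1 and cDC2 cells, so it was at least 884-fold higher than in cDC1 and 853-fold higher than in cDC2 (579 UMIs against the floor of 3 counts over both libraries). The Il12b signal was uneven between members: 14 of 29 and 5 of 31 held it, and 1 control cell with 279 UMIs gave 86.4% of the control total, while the top cell of the IRF4 arm gave 25.0%. Of the list, 6 of 8 tested genes were higher and 1 lower than in cDC1 (median 1.73), and 4 were higher and 1 lower than in cDC2 (median 1.46). Il15ra, which presents IL-15 to T and NK cells, was at 132 and 78.3 CPM against 7.24 to 11.3 CPM, and Il15 itself rose by 2.14 (adjusted p = 0.00696) and 2.44 (adjusted p = 0.0042), the first lost when cells with markers of other types were left out (1.77, adjusted p = 0.0833). Ltb, lymphotoxin beta, rose by 4.12 and 2.29, and its call against cDC2 was lost in the same way (0.91, adjusted p = 0.206). Il1b was at 928 and 525 CPM against 466 and 242 CPM in cDC1, higher by 1.33 (adjusted p = 0.000204, and 0.067 without the library block), but at 1106 and 498 CPM in cDC2 (0.21, adjusted p = 0.295). The member that fell was Il18, with 0 and 2.06 CPM in mature cells against 29.0 and 22.0 CPM in cDC1, and its calls too were lost without the cells that held other types' markers (-2.96, adjusted p = 0.09, and -2.10, adjusted p = 0.279).

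Chemokine genes did not rise as a group. Of 11 tested, 3 were higher and 2 lower than in cDC1 (median -0.30), and 2 were higher and 4 lower than in cDC2 (median -1.25). Without the cells that held other types' markers, 4 were higher and 0 lower than in cDC1 (median 0.91), and 4 higher and 3 lower than in cDC2 (median -1.41). The 2 that rose against both were Ccl5 and Cxcl16. Ccl5, a chemokine that attracts T cells and monocytes, was at 5829 and 6458 CPM against 124 and 69.8 CPM in cDC1 and 82.7 and 29.3 CPM in cDC2, higher by 6.36 ± 0.33 (adjusted p = 6.77e-06) and 7.26 ± 0.35 (adjusted p = 5.84e-06). Cxcl16, the ligand of CXCR6, was at 848 and 661 CPM against 79.0 to 124 CPM. Ccl17, a CCR4 ligand like Ccl22, was at 359 and 49.4 CPM; it was higher than in cDC1 (5.52, adjusted p = 0.00652) and not called against cDC2, which held 42.1 and 188 CPM (1.11, adjusted p = 0.407). Cxcl9, the CXCR3 ligand, was at 544 and 756 CPM in mature cells and overlapped with cDC1 at 568 and 307 CPM and with cDC2 at 1169 and 165 CPM (1.04, adjusted p = 0.205, and 0.75, adjusted p = 0.39). The inflammatory Ccl6 and Ccl9 were lower than in cDC2, by -2.56 and -2.55.

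Genes of movement and shape were mostly higher, with 10 of 15 higher and 1 lower than in cDC1 (median 1.78) and 9 higher and 4 lower than in cDC2 (median 1.65). Marcksl1, an actin regulator at the membrane, was at 784 and 873 CPM against 21.4 and 9.25 CPM in cDC1 and 89.2 and 34.6 CPM in cDC2, higher by 6.18 ± 0.37 (adjusted p = 1.13e-05) and 4.21 ± 0.33 (adjusted p = 4.54e-05). Its relative Marcks rose by 1.78 and 2.89, and Samsn1, a signalling adaptor, by 5.56 and 4.54. Gpr183, the oxysterol receptor that positions dendritic cells, was at 130 and 313 CPM and higher by 2.52 than in cDC1. It was higher by 1.65 than in cDC2, a call lost without scaling factors (1.36, adjusted p = 0.0546). Actg1 rose by 0.85 and 0.91. Vim, an intermediate filament gene, was at 1162 and 1189 CPM, lower than in cDC2 at 4034 and 2756 CPM (-1.21, adjusted p = 0.000243). Chemokine receptors other than CCR7 were mostly lower: of 7 tested, 1 was higher and 5 lower than in cDC1 (median -2.44), and 0 higher and 4 lower than in cDC2 (median -2.19). Ccr2, the receptor that brings monocytes and pre-dendritic cells into tissue, was at 110 and 20.6 CPM against 437 and 395 CPM in cDC1 and 643 and 611 CPM in cDC2. It had UMIs in 3 of 29 and 4 of 31 members, and the deepest cell of the IRF4 arm held 58 of them.

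Transcription factors of the IRF and BATF families differed from each immature gate in their own way. Irf1 was higher than in both, by 1.46 (adjusted p = 0.000426) and 1.03 (adjusted p = 0.0026). Irf8 (chr8:120736358-120756694, plus strand), which cDC1 need, was at 1060 and 587 CPM in mature cells, 1669 and 1931 CPM in cDC1 and 279 and 207 CPM in cDC2. The mature values stood below cDC1 (-0.91 ± 0.24, adjusted p = 0.0231) and above cDC2 (2.05 ± 0.25, adjusted p = 0.000495). The difference from cDC1 was lost without the H2-Ab1 limit (-0.45, adjusted p = 0.147), when cells with other types' markers were left out (-0.76, adjusted p = 0.155) and without the library block (-0.83, adjusted p = 0.0744). Batf3 was at 205 and 159 CPM, as in cDC1 at 168 and 178 CPM (0.34, adjusted p = 0.236), and above cDC2 at 57.3 and 52.8 CPM (2.02, adjusted p = 0.000229). Id2, the inhibitor of E proteins that cDC1 need, was higher than in cDC2 by 2.15 (adjusted p = 0.00235). Irf4 (chr13:30749226-30766976, plus strand) was low, at 31.1 and 24.7 CPM with UMIs in 9 of 29 and 7 of 31 members. It was above cDC1 at 2.52 and 2.23 CPM (3.78 ± 0.43, adjusted p = 0.000333) and beside cDC2 at 24.7 and 22.6 CPM (0.53 ± 0.32, adjusted p = 0.26). Of the whole list of 18, 8 were higher and 1 lower than in cDC1 (median 0.73), and 11 higher and 1 lower than in cDC2 (median 1.63). The members that rose most were Stat4, which carries IL-12 signals, at 401 and 340 CPM against 4.46 to 25.4 CPM in the immature gates (6.39 ± 0.24, adjusted p = 1.76e-06, and 4.20 ± 0.20, adjusted p = 5.84e-06), and the orphan nuclear receptor Nr4a3, at 674 and 396 CPM against 5.42 to 41.0 CPM. Etv3, an ETS repressor, rose by 3.39 and 3.04. Zbtb46, a factor of all conventional dendritic cells, was at 71.4 and 82.4 CPM and did not differ beyond the spread from cDC1 (0.69, adjusted p = 0.141).

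Survival genes rose in part: 7 of 14 were higher and 1 lower than in cDC1 (median 0.98), and 7 higher and 2 lower than in cDC2 (median 0.55). Bcl2a1b, an anti-apoptotic BCL2 relative and NF-kB target, was at 2512 and 2114 CPM against 244 to 331 CPM in the immature gates. Its near-identical copies can share reads, so the value belongs to the family. Birc2, an inhibitor of apoptosis that also restrains NIK, rose by 4.27 and 3.82, and Cflar, the caspase-8 inhibitor FLIP, by 2.56 and 1.95. Cytokine receptor genes of the IL-4 and GM-CSF group split: 7 of 11 were higher and 2 lower than in cDC1 (median 1.06) and 3 higher and 2 lower than in cDC2 (median 0.23). Il7r, which also serves the TSLP receptor, was at 271 and 272 CPM against 29.0 to 67.9 CPM, while Csf2ra, the GM-CSF receptor alpha chain, fell by 0.82 and 1.05 on the log2 scale, calls lost without cells that held other types' markers (-0.49, adjusted p = 0.359, and -0.57, adjusted p = 0.285).

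**Figure D3:**
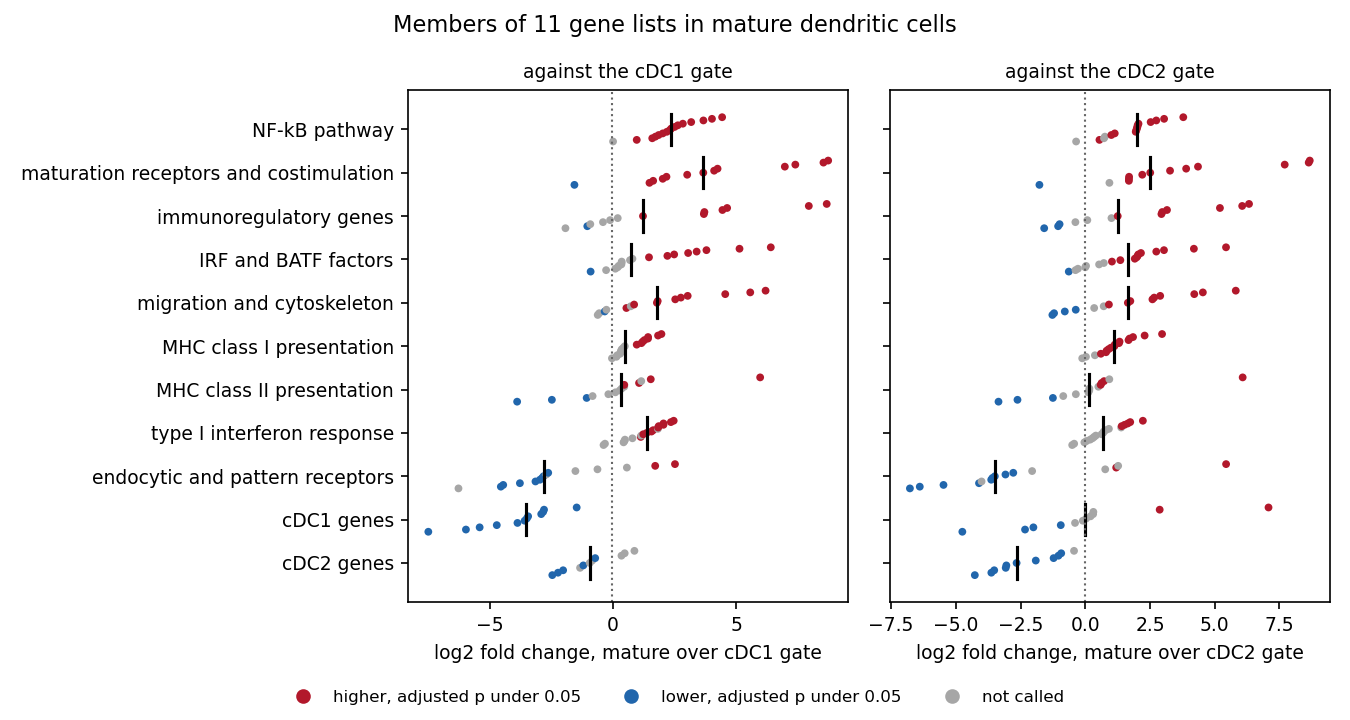
Each point is 1 tested gene of 11 lists, at its log2 fold change of mature cells over cDC1 (left) and over cDC2 (right); red genes were higher and blue lower at an adjusted p under 0.05, grey genes were not called, and black bars are medians. Costimulation and NF-kB genes lie almost wholly to the right of 0, and cDC1 genes to the left in the comparison with cDC1.

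Antigen presentation differed by class. Of 17 MHC class I genes, 8 were higher than in cDC1 (median 0.48) and 14 higher than in cDC2 (median 1.12), with none lower. H2-K1, a classical class I heavy chain whose reads can be shared with its relatives, was at 3758 and 2890 CPM against 1854 and 1479 CPM in cDC1 and 1811 and 1496 CPM in cDC2, higher by 1.27 ± 0.10 (adjusted p = 5.19e-05) and 1.30 ± 0.10 (adjusted p = 4.68e-05). B2m, the shared light chain, rose by 1.20 and 1.14, and Psme2, a proteasome activator subunit, by 1.42 and 1.67. MHC class II genes did not move as a group: 4 of 14 were higher and 3 lower in each comparison (medians 0.31 and 0.16), and without scaling factors 3 were higher and 4 lower than in cDC1 and 1 higher and 5 lower than in cDC2. Every gate had been chosen with a minimum of H2-Ab1, so the level of class II genes is partly set by the rule. H2-Aa rose by 0.45 and 0.59, both lost without scaling factors, and without the H2-Ab1 limit the values were -0.18 (adjusted p = 0.404) and -0.04 (adjusted p = 0.866). Cd74, the invariant chain, was at 18901 and 18482 CPM and did not differ beyond the spread (0.09, adjusted p = 0.494, and 0.12, adjusted p = 0.373). Genes that load and turn over class II molecules went both ways. H2-DMb1, a subunit of the peptide exchanger, was at 134 and 196 CPM against 1078 to 1261 CPM in the immature gates (-2.48 ± 0.15, adjusted p = 1.13e-05, and -2.62 ± 0.15, adjusted p = 1.1e-05). H2-DMa fell by 1.07 and 1.25 on the log2 scale. H2-DMb2, the second gene of the same subunit, was at 227 and 330 CPM, higher than in cDC1 (1.53, adjusted p = 0.00211, and 0.148 without the H2-Ab1 limit) and not called against cDC2 (0.51, adjusted p = 0.15). Ifi30, a thiol reductase of antigen processing, was likewise higher than in cDC1 (1.05, adjusted p = 0.00117) and not called against cDC2 (0.16, adjusted p = 0.476). March1, the ubiquitin ligase that marks class II and CD86 for degradation, was at 3.66 and 14.4 CPM against 106 to 168 CPM. H2-Eb2, a minor class II beta chain, rose instead, at 146 and 132 CPM against 1.45 to 3.78 CPM.

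Genes of the immature lineages were low in the members. All 12 tested cDC1 genes outside the gate were lower than in cDC1 (median -3.54), while against cDC2 2 were higher and 4 lower (median -0.03). Of 11 tested cDC2 genes outside the gate, 10 were lower than in cDC2 (median -2.65) and 5 lower than in cDC1 (median -0.95), with none higher. The comparison gates had been picked by Xcr1, Clec9a and Cd209a, so genes that go with these are high there by choice. Naaa, an amidase of cDC1, was at 34.8 and 150 CPM against 1358 and 1698 CPM in cDC1 and 546 and 493 CPM in cDC2, below both. Wdfy4, which cDC1 need for cross-presentation, was at 20.1 and 37.1 CPM against 333 and 484 CPM in cDC1. Cd300a, an inhibitory receptor, fell by 2.46 and 4.27 on the log2 scale. Lyz2, the lysozyme gene of myeloid cells, was at 87.9 and 72.1 CPM against 2374 and 1454 CPM in cDC1 and 6099 and 2410 CPM in cDC2, lower by -4.29 ± 0.22 (adjusted p = 7.26e-06) and -5.33 ± 0.23 (adjusted p = 4.04e-06). Flt3, the receptor for the dendritic cell growth factor, was at 89.7 and 175 CPM, not different from cDC1 beyond the spread (-0.02, adjusted p = 0.955).

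Uptake and sensing receptors were mostly lower. Of 15 tested, 2 were higher and 8 lower than in cDC1 (median -2.82), and 2 higher and 9 lower than in cDC2 (median -3.49). With genes at 0 UMIs set to their bounds, the medians were -2.70 and -3.08. Without the cells that held other types' markers 12 were tested, of which 2 were higher and 1 lower than in cDC1 (median -1.52), and 1 higher and 6 lower than in cDC2 (median -2.86). Fcgr2b, the inhibitory Fc receptor, was at 3.66 and 30.9 CPM against 145 and 147 CPM in cDC1 and 242 and 244 CPM in cDC2. Mrc1, the mannose receptor, was at 0 and 4.12 CPM; it was lower by 5.48 on the log2 scale than in cDC2, a call lost without the H2-Ab1 limit (-1.16, adjusted p = 0.135). The exceptions were Axl and Ly75. Axl, a receptor for apoptotic cells, was at 65.9 and 49.4 CPM, higher by 1.71 (adjusted p = 0.0124) and 1.19 (adjusted p = 0.0472), calls lost without the H2-Ab1 limit (0.95, adjusted p = 0.142, and 0.45, adjusted p = 0.471). Ly75, the endocytic receptor DEC-205, was at 227 and 165 CPM against 38.4 and 43.7 CPM in cDC1 and 4.35 and 5.98 CPM in cDC2, higher by 2.51 (adjusted p = 0.000134) and 5.44 (adjusted p = 1.1e-05).

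Type I interferon genes rose in part. Of 19 type I interferon genes, 11 were higher than in cDC1 (median 1.36) and 5 higher than in cDC2 (median 0.69), with none lower. Without the cells that held other types' markers, 6 were higher and 1 lower than in cDC1 (median 0.45), and 3 higher and 1 lower than in cDC2 (median 0.11). Without the H2-Ab1 limit, 7 were higher and 1 lower (median 0.91), and 4 higher and 2 lower (median -0.01). Isg15, a ubiquitin-like protein, was at 417 and 404 CPM against 170 and 49.7 CPM in cDC1 and 264 and 91.9 CPM in cDC2 (2.46, adjusted p = 0.00103, and 1.74, adjusted p = 0.00542). In both immature gates the control arm was the lower, while the mature values of the arms were alike. Of 14 interferon-gamma genes, 2 were higher than in cDC1 (median 0.21), and 4 higher and 1 lower than in cDC2 (median -0.17), with Gbp5 higher by 2.47 and 1.59. Without the library block the calls of Isg15 and Gbp5 against cDC2 were lost (adjusted p = 0.0975 and 0.0927). Glycolysis genes split, 3 of 16 higher and 5 lower than in cDC1 and 3 higher and 4 lower than in cDC2. Gapdh was at 3165 and 3805 CPM and higher by 0.85 and 0.86. The immediate early gene Fos, which dissociation can raise, was at 134 and 150 CPM against 808 and 402 CPM in cDC1 (-1.70, adjusted p = 0.0136, and 0.0686 without the library block) and 1403 and 336 CPM in cDC2 (-2.02, adjusted p = 0.00669).

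The calls of proliferation genes depended on the H2-Ab1 limit. With it, 1 of 12 was higher and 2 lower than in cDC1 (median -0.23), and 7 were higher and 1 lower than in cDC2 (median 0.83), 3 higher and 1 lower without scaling factors. Without it, 1 was higher and 8 lower than in cDC1 (median -1.04), and 1 higher and 1 lower than in cDC2 (median -0.08). Mki67 was at 91.5 and 119 CPM in members, but few cells gave it, 6 of 29 and 5 of 31, and 1 cell held 64.0% and 41.4% of its UMIs. The call for Mki67 against cDC2 (0.91, adjusted p = 0.0152) was lost without scaling factors and turned to -0.06 without the H2-Ab1 limit. Outside that limit Mki67 was at 4.55 and 9.47 CPM. The shares of cells with a UMI of cell cycle genes overlapped, at 31.0% (15.3 to 50.8%) and 25.8% (11.9 to 44.6%) inside the limit. Outside it they were 29.6% (13.8 to 50.2%) and 16.7% (6.97 to 31.4%).

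Ranked by fold change among called genes of at least 50 CPM, the 10 highest over cDC1 and the 10 highest over cDC2 both held Il12b, Cacnb3, Mreg, Tnfrsf4, Apol7c and Nudt17. Cacnb3, a subunit of voltage-gated calcium channels, was at 546 and 455 CPM against 0 to 2.87 CPM in the immature gates. Nudt17, a hydrolase gene of the Nudix family, was at 170 and 82.4 CPM. Mreg, the organelle transport protein melanoregulin, was at 112 and 117 CPM and higher by 8.93 (adjusted p = 1.05e-05) and 8.92 (adjusted p = 1.13e-05). Apol7c, an apolipoprotein L of dendritic cells, had 0 UMIs in both immature gates and was at least 82.4-fold and 79.5-fold higher, at 87.9 and 12.4 CPM. At the other end, Ly6d, Siglech, Ccr9 and Cox6a2 were among the 10 lowest against cDC1. These are genes of plasmacytoid dendritic cells, and they were present in the cDC1 gate, Ly6d at 117 and 179 CPM and Siglech at 115 and 96.9 CPM, so the part of such cells in the cDC1 values was not tested. Against cDC2 the lowest included Hpgd, F13a1 and Klra2, each with 0 UMIs in the members and at least 18.1-fold, 21.1-fold and 16.3-fold lower.

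Most members held no UMI of the markers of either lineage (for cDC1 Xcr1, Clec9a, Naaa, Cadm1, Tlr3 and Itgae, for cDC2 Cd209a, Clec10a, Mgl2, Clec4a2 and Clec4a4), but single members held many. In the IRF4 arm 1 member held 10 UMIs of Xcr1, 22 of Clec9a and 10 of Naaa, and another 25 of Mgl2. In the control arm 1 member held 54 UMIs of Naaa and 43 of Clec10a. Of the IRF4 arm, 7 of 29 members (24.1%) held UMIs of the cDC1 markers alone, 4 of the cDC2 markers alone, 3 of both and 15 of neither. Of the control arm, 3 of 31 (9.68%) held cDC1 markers alone, 5 cDC2 markers alone, 4 both and 19 neither. The macrophage gate held cDC1 markers in 73.4% and 73.8% of cells and cDC2 markers in 83.8% and 92.3%, against 34.5% and 22.6% and 24.1% and 29.0% of the members. After thinning to 2000 UMIs, 3 and 3 members held a cDC1 marker and 2 and 3 a cDC2 marker. The members' shares lay below those of the macrophage gate, so the presence of such a UMI is not read as a lineage of the cell that holds it. These shares do not weigh how many UMIs a cell held, and the lineage of the members with many was not tested. Il12b had UMIs in 48.3% of members of the IRF4 arm and 16.1% of the control arm, and after thinning to 2000 UMIs in 34.5% and 12.9%. In the macrophage gate it was seen in 0 of 173 and 1 of 470 cells. In the cDC1 gate it was seen in 0 of 66 and 0 of 110 cells, which allows shares of up to 4.55% and 2.73%, and in the cDC2 gate in 0 of 83 and 0 of 152, which allows up to 3.61% and 1.97%, so the share in members lay above the background of free RNA. Of the members with Il12b UMIs, 11 of 14 and 4 of 5 also held Il1b. Irf8 had UMIs in 96.6% and 71.0% of members, 69.0% and 32.3% after thinning, against 77.5% and 83.4% in the macrophage gate unthinned, so its presence alone is no mark of the members.

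Between the arms, 4209 genes were measured. A gene was called when its log2 ratio of CPM plus 5 passed a fold of 1.5, the counting interval of the ratio excluded 1 and it reached 30 CPM in either library. By this rule of size 229 genes were higher in the IRF4 arm (5.44%) and 377 lower (8.96%), with a median of -0.06. When scaled by TMM factors the counts were 324 and 277 and the median 0.05, so the split of directions depends on the scaling. A call says that 2 libraries differ by more than counting error, not that the arms do.

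Of 12 measured costimulation genes 2 were higher, Cd70 at 45.8 and 14.4 CPM and Tnfsf9, the ligand of 4-1BB, at 98.9 and 43.3 CPM. In that list 1 was lower, Icosl, the ligand of ICOS, at 67.7 and 115 CPM, and the median was 0.19. Of 15 measured NF-kB genes 1 was higher and 0 lower (median 0.14), and of 17 MHC class I genes 0 were called (median 0.22). Relb was at 615 and 589 CPM, a ratio of 1.04. Cd274 had a ratio of 0.944, Socs2 of 1.13, Cd40 of 1.15 and Ccl5 of 0.903, none of them called. Irf4 itself was at 31.1 and 24.7 CPM, a ratio of 1.26 whose interval of 0.567 to 2.89 leaves both directions possible. Il12b went one way by CPM, at a ratio of 0.704 (0.595 to 0.832), and the other by share of cells, with 14 members against 5, as 1 control cell held most of its UMIs.

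Higher in the IRF4 arm were several genes of cytokines, immunoregulation and transcription. Irf8 was at 1060 CPM (exact Poisson 95% interval 975 to 1150) in the IRF4 arm and 587 CPM (521 to 659) in the control arm, a ratio of 1.81 (1.56 to 2.09). Its median per cell was 8.28 UMIs per 10000 (0 to 25.5) against 1.28 (0 to 46.7), and the arms overlapped. Il4i1 had a ratio of 1.62 (1.38 to 1.91), Il1b of 1.77 (1.52 to 2.06), Pdcd1lg2 of 1.80 (1.27 to 2.57) and Nr4a3 of 1.70 (1.43 to 2.04). The cytokine list had 3 of 6 measured genes higher and 0 lower (median 0.69), and the immunoregulatory list 4 of 11 higher and 1 lower. Of 17 IRF and BATF factors 4 were higher and 1 lower (median 0.13), with Irf1, the interferon-induced factor, at 353 and 222 CPM, Id2 at 1188 and 698 CPM and Zfp36l1, an RNA-binding protein, lower at 438 and 694 CPM. Of 15 NF-kB genes the 1 higher was Nfkb2, at 227 and 148 CPM (1.53, 1.14 to 2.08). Over the alternatives for cells, depth and scaling, the log2 value of Irf8 ran from 0.37 to 1.25, of Il4i1 from 0.36 to 1.42 and of Il1b from 0.42 to 0.92. Several calls fell under the fold of 1.5 in some alternatives: Irf8 at 0.37 with H2-Ab1 of at least 20 per 10000, and Il4i1 at 0.36 and Il1b at 0.52 without the H2-Ab1 limit. After thinning to 2000 UMIs, Il4i1 stood at 0.53, Il1b at 0.42 and Pdcd1lg2 at 0.34. Nr4a3 was at 0.44 with the higher H2-Ab1 limit, Irf1 at 0.27 without cells that held other types' markers, and Id2 at 0.22 without the H2-Ab1 limit. Nfkb2 ran from 0.48 to 0.58 in 7 alternatives. The list of cDC1 genes, with 6 measured, had 2 higher and 1 lower (median -0.07). Ccl17, at 359 and 49.4 CPM, had a ratio of 7.26, but it had UMIs in 7 and 8 cells and 1 cell gave 65.3% of its UMIs in the IRF4 arm. Ccr7, a gene of the rule, had median levels of 27.1 and 10.7 UMIs per 10000 per member.

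**Figure D4:**
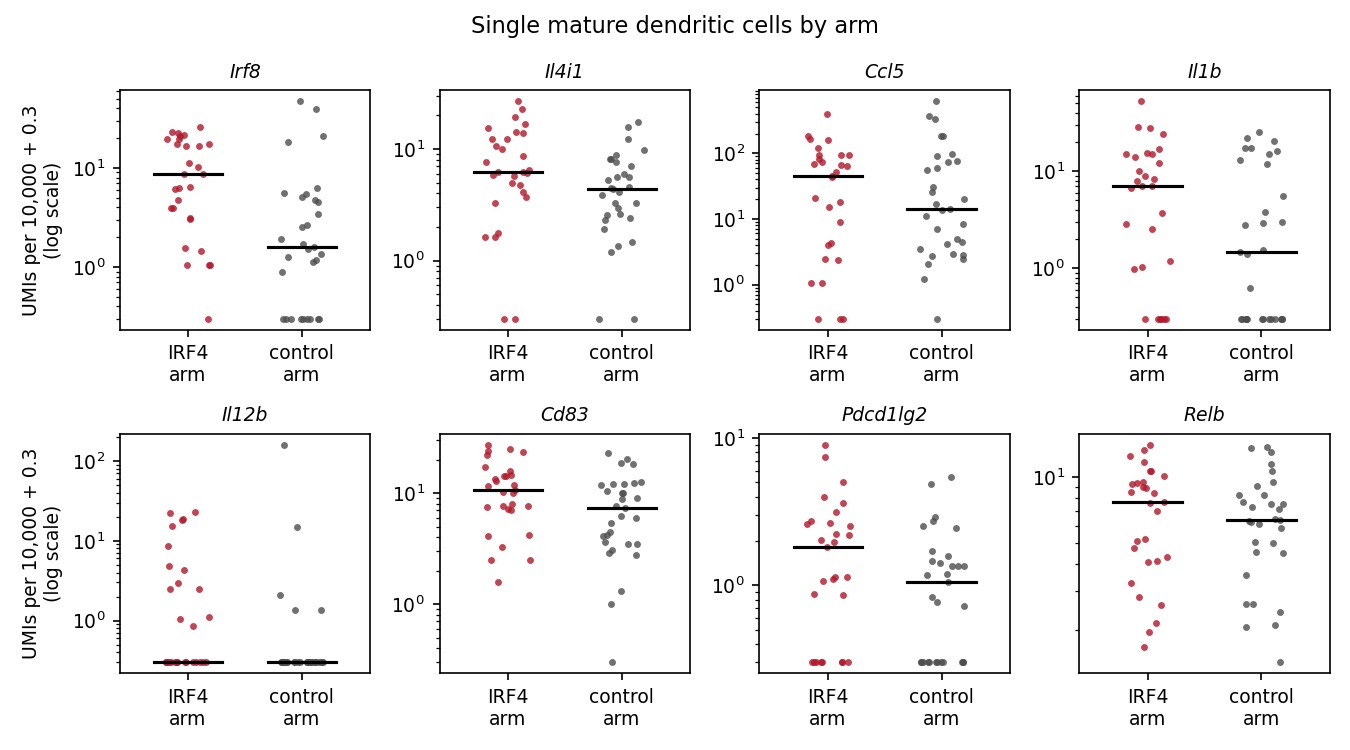
Points are single members, at their UMIs per 10000 plus 0.3 on a log axis, for 8 genes; red is the IRF4 arm (29 cells), grey the control arm (31 cells), and bars are medians. Irf8 has medians of 8.28 and 1.28, Relb of 7.35 and 6.07, and the cells of the arms overlap in every panel.

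Lower in the IRF4 arm were genes of several lists. Of 9 pan dendritic genes 4 were lower and 0 higher (median -0.31), among them Flt3 at 89.7 and 175 CPM, a ratio of 0.512 (0.353 to 0.737). Gpr183 had a ratio of 0.415 (0.309 to 0.554). Of 13 MHC class II genes 2 were lower and 0 higher (median 0.03): Ciita at 25.6 and 94.8 CPM, a ratio of 0.270 (0.137 to 0.501), and H2-DMa at 311 and 513 CPM, a ratio of 0.607. Some of these also fell under the fold: Flt3 at -0.55 without the top 6% of doublet scores, Gpr183 at -0.43 without cells that held other types' markers, H2-DMa at -0.34 without the H2-Ab1 limit and Zfp36l1 at -0.20 at its least. Of 11 interferon-gamma genes 5 were lower and 0 higher (median -0.34), and of 17 type I interferon genes 3 were higher and 6 lower (median -0.21), 4 and 4 with TMM factors. Proliferation genes were lower in 3 of 10 and higher in 0 (median -0.60), 2 and 0 with TMM factors, on few cells.

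The genes with the largest ratios between arms came mostly from 1 or a few cells. Among the 10 highest in the IRF4 arm, Gzmc, Gzmd, Gzme, Gzmb, Gzmf, Prf1, Thy1 and Nkg7, genes of cytotoxic lymphocytes, had 93.1% to 100% of their UMIs in 1 cell of 54238 UMIs, the deepest member. Gzmc reached 3044 CPM against 0 by that cell. The neutrophil genes S100a8 and S100a9, at 589 and 578 CPM against 2.06 and 6.18 CPM, came wholly from 1 other cell of the IRF4 arm, with 322 and 316 UMIs. Among the 10 lowest, Clec10a, a lectin of cDC2, was at 0 and 96.8 CPM with 91.5% of its UMIs in 1 of 3 control cells, and Acp5 at 16.5 and 124 CPM with 78.3% in 1 cell. The heat shock genes Hspa1a (80.5 and 604 CPM) and Hspa1b (43.9 and 412 CPM), near-identical copies that can share reads, also lay there, and 1 control cell held 57.3% of Hspa1a. Adm, which encodes adrenomedullin, was at 0 and 57.7 CPM with UMIs in 9 control cells, and Cd72, a B cell and myeloid receptor, at 20.1 and 136 CPM. The other 4 of the 10 lowest were Tmem158 (7.32 and 78.3 CPM), Sox4 (9.15 and 82.4 CPM), Hist1h2ap (9.15 and 74.2 CPM) and Ms4a6c (36.6 and 198 CPM).

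Markers of other cell types were present in many members. Cells with no UMI of any of 11 such markers numbered 12 of 29 and 13 of 31. The immature gates carried such UMIs too: cells without any numbered 39 of 66 and 53 of 110 in cDC1 and 49 of 83 and 90 of 152 in cDC2. The summed level of 8 T cell genes was 93.4 and 92.7 CPM, with 3 of 8 at 0 in each library, Cd4 and Cd8b1 among them. That of 8 NK genes was 868 and 637 CPM, to which Klrk1 gave 302 and 282 CPM and Klrd1 207 and 340 CPM. Klrd1 had UMIs in 17 of 29 and 25 of 31 members, against 65 of 83 and 130 of 152 cDC2 cells. Of 6 tested NK genes, Klrk1, Gzmb and Klrd1 were higher than in cDC1, and Klrk1, Gzmb and Nkg7 higher than in cDC2. Gzmb stood at 168 and 4.12 CPM and Nkg7 at 106 and 8.24 CPM, and the deepest member held most UMIs of both in the IRF4 arm. Without the cells that held other types' markers 2 NK genes were tested, with 2 higher than in cDC1 and 0 higher than in cDC2. B cell genes summed to 36.6 and 96.8 CPM with Pax5 at 0, and 12 monocyte and macrophage genes to 218 and 222 CPM with Vcan and Chil3 at 0. Neutrophil genes summed to 1203 and 8.24 CPM with Ly6g at 0, and plasmacytoid genes to 108 and 161 CPM. Mast cell and basophil genes had 0 UMIs in all members. A doublet caller marked only 3 of 6371 and 2 of 5676 cells and did not work here, so no cell was removed. The 6% of cells scored most like doublets held 7 members of the IRF4 arm and 1 of the control arm, and without them the ratio of shares was 0.653 (0.359 to 1.17). Of the 229 genes higher and 377 lower in the IRF4 arm, 121 and 261 were also called without these cells. Across the 2 libraries 18 cell barcodes were shared, none of them a member.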

How the data were processed

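Single cells were captured with a 10x Genomics 3' kit (version 3) from sorted cells, per the labels' protocols (their wording on the suspension names nuclei). Reads were processed with Cell Ranger 3.0.2 and STAR 2.6 on mm10, per the submitters' processing notes, while the sources used here do not give the gene annotation. The authors deposited matrices of raw UMI counts per gene and barcode, 28692 genes in each. Of these, 58 symbols belong to several gene identifiers and were not used by symbol.

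Barcodes with at least 1000 UMIs and 500 genes and at most 10% mitochondrial UMIs were kept, and members and comparison gates were chosen by the genes given in the report. The members, gene lists and tests were chosen with earlier results of these data known, so no list is independent evidence. Counts were summed over the cells of each gate and library, which gave 6 sums. Mature cells were compared with cDC1 and cDC2 by edgeR 4.0.16 (R 4.3.3) with TMM scaling, a library block, the default filter on low counts, 2 residual degrees of freedom and Benjamini-Hochberg adjustment at 0.05. The block is the library, from which all 3 gates were cut, so it pairs gates of the same tumours. In counts simulated from these sums, 64.0% of 4-fold and 9.57% of 2-fold changes were recovered against cDC1, and 69.0% and 8.51% against cDC2, over 8731 genes. The simulation changed 100 genes at each fold, fewer than the real fit called. Its dispersion, the spread beyond counting error, was fixed at 0.05, above the common value of 0.0235 in the real fit. Under these settings 2-fold changes were mostly not recovered, and recovery at the spread of the real fit was not tested.

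The arms, with 1 library each, were compared by size alone, with exact Poisson intervals of counts, conditional binomial intervals of ratios and Clopper-Pearson intervals of shares, all at 95% and for counting error only. Genes at 0 UMIs in a class were given a bound from a floor of 3 counts over both libraries. Shares of cells with a UMI were also taken after thinning each cell to 2000 UMIs (scanpy 1.11.5, numpy 2.4.6 and scipy 1.17.1 under Python 3.11.15).

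Genes named were to be those of the rule, a set of dendritic cell genes, up to 4 members of each list with the highest CPM, members called between arms, the 10 highest and 10 lowest of each comparison among called genes of at least 50 CPM, and the most abundant markers of other types. The text gives a selection of these by role, and the selection and a few further members were picked with their values known. Promoter sequences are from RefSeq on GRCm38.p6, coordinates of genes from GENCODE on the same assembly. The alternatives were other scaling, filters, depth, gates and sets of cells, DESeq2 1.42.0, and leaving out each library. The Pmel-1 libraries were used only to look for members.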

Additional observations from a re-analysis of the deposited data

Results flagged for a closer look

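Only the genes chosen to be named were searched here, not all genes tested. For 5 of them the difference between mature cells and an immature gate went opposite ways in the 2 libraries, each by a fold of 1.5 or more. The difference between libraries was not tested. Against cDC1, Cd72 had a log2 value of -0.70 with IRF4 and 1.37 in the control, Hspa1a at -2.34 and 0.62, and Hspa1b at -1.95 and 1.09. Against cDC2, Cd72 stood at -1.45 and 0.71, Hspa1a at -3.23 and 0.95, and Hspa1b at -2.66 and 1.34. Hspa1a and Hspa1b are near-identical genes of the inducible heat shock protein HSP70, and 57.3% of the Hspa1a UMIs of control members came from 1 cell. The chemokine gene Ccl17 was at 2.95 over cDC2 with IRF4 and at -1.83 in the control, with 65.3% of its UMIs in the IRF4 arm in 1 cell. Cxcl9 was at -1.10 over cDC2 with IRF4 and at 2.16 in the control. For this gene cDC2 held 1169 and 165 CPM and mature cells 544 and 756 CPM. It had UMIs in 11 of 29 and 10 of 31 members, with up to 203 and 176 UMIs in 1 cell.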

How the results depend on the processing

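The ratio of the mature share between arms ran from 0.513 to 0.925 over the alternatives, and that among the dendritic gates from 1.01 to 1.70; no direction turned. Of the alternatives, those without single cells, without the H2-Ab1 limit, without the limit on the Cd3 genes, with thinning to 5000 UMIs and without scaling factors were chosen after seeing the data. Without the replicate block (the library) 1304 and 1070 genes were called higher and lower than cDC1 and 1270 and 1074 than cDC2. Of the 1338 and 1130 calls against cDC1 with the block, 1260 and 1028 were kept. Of the 1307 and 1107 against cDC2, 1217 and 1021 were kept. Among the named genes, beside the calls given in the report, those of Ccr9, Cox6a2, Ly6d, Mrc1 and F13a1 against cDC1 were lost. Against cDC2 those of Hpgd and Wdfy4 were lost. Fewer genes were called with DESeq2 (666 lower than cDC1, 699 lower than cDC2), without cells that held other types' markers (791 higher and 561 lower than cDC1, 726 and 553 for cDC2), after thinning to 5000 UMIs (751 and 620, 757 and 635) and to 2000 UMIs (407 and 294, 397 and 337). Of the 407 and 294, 403 and 260 were also called without thinning. Without scaling factors 1748 genes were lower than cDC1 and 1733 lower than cDC2. Between arms, thinning to 2000 UMIs left 71 genes higher and 84 lower, of which 29 and 36 were among the 229 and 377 first called. A minimum of 100 CPM left 103 and 115, all of them among those first called. Without cells that held other types' markers 218 and 472 were called, 77 and 164 of them shared. Without the H2-Ab1 limit 215 and 279 were called, 99 and 126 of them shared. The genes called between arms therefore depend on the cells and depth used. The cause of these shifts was not tested, beyond the fewer UMIs, cells or genes that thinning, the marker limit and the CPM minimum leave by construction.

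Among the named genes that had been called, some log2 values changed sign, and other genes were not searched. Between arms these were, with H2-Ab1 of at least 20 per 10000, Ccr2 (-1.95), Nkg7 (-0.31), S100a9 and Thy1 (both -0.66); without cells above 3 times the median UMIs, Ccr2 (-1.50), Nkg7 (-0.012) and Thy1 (-0.50); without the top 6% of doublet scores, Ccr2 (-1.20), Nkg7 (-0.024), S100a8 and Thy1 (both -0.51) and S100a9 (-1.19); without other types' markers, Ccr2 (-3.17), Cd70 (-0.52), Nkg7 (-0.10) and Hspa1a (0.30); without the S100a8 cell, S100a8 (-0.50) and S100a9 (-1.16); without the 3 deepest cells of each library, Ccr2 (-0.78), Thy1 (-0.59) and Naaa (0.65); without the H2-Ab1 limit, Apol7c (-0.79); and after thinning, Tgfb1 (-0.16) and Icosl (0.091). Against cDC1, Ccl6 turned with the markers left out (1.13) and with stricter gates (1.72), and without the H2-Ab1 limit F13a1 (0.56), H2-Aa (-0.18) and Mrc1 (1.26). Against cDC2, H2-Aa (-0.040) and Mki67 (-0.059) turned without that limit, and Acp5 ran from -0.061 without the control library to 2.49 without the IRF4 library. Leaving out a library left 1 pair of sums and no test.

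With 60 members, 29 and 31 per library, a gene seen in few cells rests on 1 or a few of them. Few 2-fold changes between gates were recovered in simulated counts, which had a wider spread than the real fit. The groups compared hold 1 library each, so treatment, tumour and library cannot be told apart.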
